A study of Mus musculus with 12 samples.

Results

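The 9 genes described here code for 6 matricellular proteins (Ctgf, Cyr61, Thbs1, Thbs4, Postn and Sparc) and for the 3 TGF-beta ligands (Tgfb1, Tgfb2 and Tgfb3). They were taken by symbol from the 33641 genes listed for each of 12 mouse heart samples, and all 9 were found in every sample. RNA sequencing covered the left ventricle (LV) and right ventricle (RV) of 2 genotypes, with 3 samples in each of the 4 groups. The mice were 12 to 14 weeks old, labelled as C57BL/6J and described in the study as males from a hybrid line. In all of them the human coding sequence of phospholamban (PLN, the small membrane protein that restrains the cardiac calcium pump) had been knocked into the mouse Pln gene at its start codon, and the founders were bred to Sox2-Cre mice, in which Cre acts in the early embryo. No mouse with its own unaltered Pln gene was included. The control group, WT-PLN, was homozygous for the human wild-type sequence. The R14del-PLN group, titled KO in the labels, was heterozygous, with the human R14del sequence (an arginine deletion) on 1 allele and the human wild-type sequence on the other.

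Matricellular proteins are secreted into the extracellular matrix but regulate cells more than they build structure, by binding integrins, growth factors and other matrix proteins. TGF-beta ligands are stored in the matrix as latent complexes, and once released they signal through paired serine and threonine kinase receptors to SMAD transcription factors. In the heart this signalling is known for its part in fibroblast activation and scar formation. Ctgf and Cyr61 are also well known target genes of the mechanosensitive YAP, TAZ and TEAD regulators, and Cyr61 and Thbs1 belong to the genes that cells induce quickly after serum or mechanical stimuli.

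Expression was given as TPM, a transcript abundance scaled for transcript length and library total, so levels can be compared between genes. Pln itself was listed at 1559 to 1963 TPM across the 12 samples, and mitochondrially encoded genes took 37.3 to 54.5% of the total. All 6 cardiomyocyte markers were listed above 0 in every sample, and their summed TPM was 23940 to 36458. Both WT-PLN samples numbered 1 (LV and RV) stood apart, since 4 Y-linked genes summed to at most 0.284 TPM there and to 43.5 to 63.7 TPM in the other 10 samples, although the mice were described as males. The RV R14del-PLN sample numbered 3 came from another sequencing run than the other 11 samples. Results that rest on these samples are given below with and without them.

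By mean TPM over all 12 samples, the order was Sparc (97.0), Ctgf (78.1), Cyr61 (36.8), Thbs1 (10.6), Postn (9.77), Tgfb1 (6.04), Tgfb3 (3.96), Tgfb2 (2.63) and Thbs4 (2.20). In LV WT-PLN samples the ranges of all neighbours in the group's own order overlapped, so that order was not resolved. In LV R14del-PLN samples Sparc stood clear of Ctgf, Cyr61 of Postn, Tgfb1 of Tgfb3, and Thbs4 of Thbs1, which came last there. In RV WT-PLN samples Ctgf stood clear above Sparc, and the ranges of all later neighbours overlapped. In RV R14del-PLN samples Sparc again stood clear of Ctgf, Cyr61 of Postn, Tgfb1 of Tgfb3, and Tgfb3 of Tgfb2. The genes differed widely in how much they varied: the highest sample was 131 times the lowest for Thbs1, 14.7 times for Cyr61, 13.4 times for Ctgf and 11.3 times for Postn. The same ratio was 5.37 for Thbs4 and lay between 1.81 (Tgfb1) and 2.24 (Tgfb3) for Sparc and the 3 TGF-beta ligands.

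**Figure D1:**
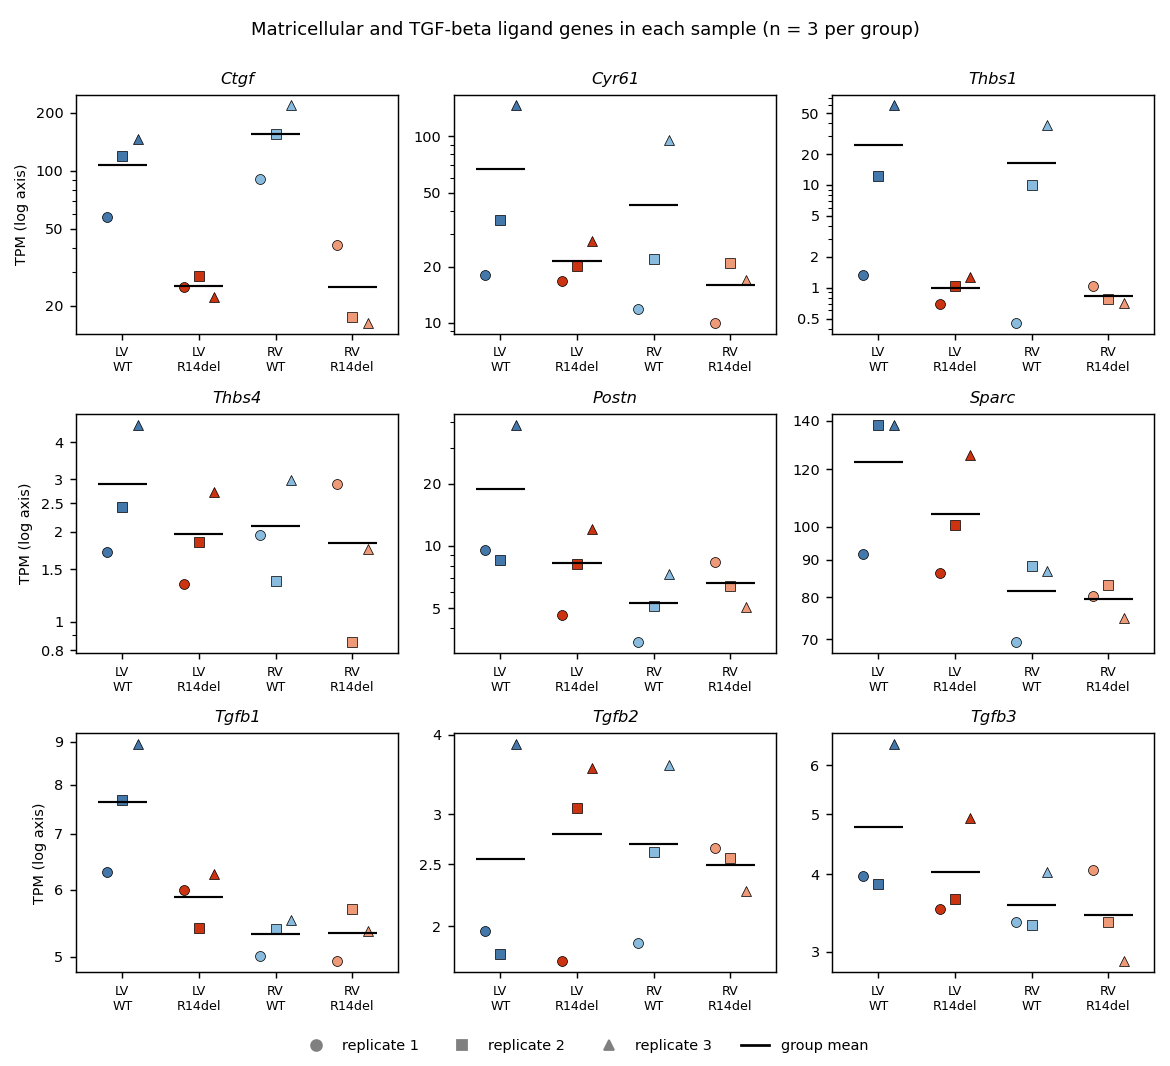
TPM of the 9 genes in each of the 12 samples, on log axes that differ between panels, by ventricle and genotype. Symbols mark the replicate number and bars the group mean (n = 3); Ctgf is the gene whose R14del-PLN samples lie below all WT-PLN samples in both ventricles, while the 3 WT-PLN samples of Cyr61 and Thbs1 are spread over a wide range.

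Ctgf (connective tissue growth factor, named Ccn2 in current annotation; GRCm38 chr10:24595442-24598683, plus strand) codes for a secreted CCN protein that binds integrins and growth factors and is a marker of profibrotic signalling. In LV it was at 57.7, 118.9 and 145.5 TPM in the WT-PLN samples and at 24.9, 28.5 and 22.3 TPM in the R14del-PLN samples. The RV values were 91.2, 154.7 and 218.0 TPM in WT-PLN and 41.3, 17.4 and 16.3 TPM in R14del-PLN. Every R14del-PLN sample was below every WT-PLN sample of its ventricle. The means were 107 ± 45.1 against 25.3 ± 3.11 TPM in LV and 155 ± 63.4 against 25.0 ± 14.1 TPM in RV (SD, n = 3), 4.25-fold and 6.18-fold lower in R14del-PLN hearts.

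Of the 9 genes only Ctgf passed the test between genotypes, and it did so in both ventricles. Same-numbered LV and RV samples may share a heart, so the calls in LV and RV may not be independent. A gene was called where limma on log2(TPM + 1) gave a p of 0.05 or less after Benjamini-Hochberg adjustment over all 12526 tested genes, together with a change of 1.5-fold or more. The log2 fold change (R14del-PLN against WT-PLN) was -1.95 in LV (SE 0.39, adjusted p = 0.0476) and -2.62 in RV (SE 0.39, adjusted p = 0.0102). The same rule called 0.519% of all tested genes in LV, 0.423% as lower, and 0.271% in RV, 0.2% as lower. Non-overlapping ranges with R14del-PLN lower were commoner, at 8.47% of tested genes in LV and 5.79% in RV. The genotype difference of Ctgf did not differ detectably between the ventricles (interaction -0.67 on the log2 scale, SE 0.55, limma adjusted p = 1.00).

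The call for Ctgf in LV lay close to the threshold. Of 27 alternative settings 13 moved it past an adjusted p of 0.05 in LV (range 0.0030 to 0.215, log2 fold change -2.34 to -1.68), against 6 of 27 in RV (0.000744 to 0.0988, -3.04 to -2.33), all with the same direction. Without both WT-PLN samples numbered 1 the log2 fold change was -2.34 in LV and -2.96 in RV (adjusted p = 0.0030 and 0.000744). Without both WT-PLN samples numbered 3 it was -1.68 and -2.33, and the call was lost in both ventricles (adjusted p = 0.191 and 0.0558). Leaving out the RV R14del-PLN sample of the other sequencing run gave -2.39 in RV (adjusted p = 0.0575), and blocking on the replicate number left the LV value with an adjusted p of 0.0533.

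In bulk samples, fewer cells of a type and less RNA per cell cannot be told apart. Ctgf was also divided by the summed TPM of markers of fibroblasts, cardiomyocytes, endothelial cells, and smooth muscle cells and pericytes. Sums of other cell types, such as macrophages, platelets and epicardial cells, were not used as divisors. Per unit of 8 fibroblast markers, the mean of Ctgf in R14del-PLN hearts was 0.331 of the WT-PLN mean in LV and 0.191 in RV. The ratios were 0.246 and 0.166 per unit of 6 cardiomyocyte markers, 0.258 and 0.153 per unit of 6 endothelial markers, and 0.317 and 0.161 per unit of 7 smooth muscle and pericyte markers. In each of these 8 comparisons every R14del-PLN sample was below every WT-PLN sample, as before the division. Undivided, the ratios were 0.235 in LV and 0.162 in RV. The 4 marker sums changed far less between genotypes, so these comparisons could hardly come out otherwise. The fibroblast marker sum itself was 557 to 871 TPM in LV R14del-PLN against 698 to 1188 TPM in LV WT-PLN, and 609 to 950 against 796 to 1011 TPM in RV, with overlap in both ventricles.

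Some markers of other cell types also differed between genotypes, none of them called. Over all 12526 tested genes 8980 were lower in LV and 6383 in RV, 983 and 426 of them at an unadjusted limma p of at most 0.05. All 5 red cell markers were lower in R14del-PLN in both ventricles, 4 in LV and 3 in RV at an unadjusted limma p of at most 0.05 (median log2 fold change -0.62 and -0.59). Their sum was 1093 to 2142 against 2087 to 2316 TPM in LV, with overlap, and 956 to 1368 against 1461 to 1736 TPM in RV, without overlap. Of 5 epicardial and mesothelial markers 3 were tested, and all 3 were lower in RV at an unadjusted p of at most 0.05 (median -0.90), against 1 of them in LV (median -0.30). The sum of the 5 was 1.47 to 3.06 against 1.87 to 4.62 TPM in LV and 1.24 to 4.12 against 3.98 to 9.08 TPM in RV, overlapping in both, and Upk1b was listed at 0 in an LV R14del-PLN sample. In LV 4 of 7 tested valve, tendon and cartilage markers were lower at an unadjusted p of at most 0.05 as well, with sums of 9.91 to 13.2 against 12.3 to 42.8 TPM, and 2 of 5 tested atrial markers, with sums of 146 to 319 against 211 to 1319 TPM. Both pairs of sums overlapped. In RV 0 markers of these lists had such a p, and 4 of 7 and 3 of 5 were higher in R14del-PLN. The part of these cell types in the Ctgf difference was not tested.

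Cyr61 (Ccn1; chr3:145646976-145649981, minus strand) codes for another secreted CCN protein, which supports cell adhesion and angiogenesis. In LV it was at 18.1, 35.6 and 146.7 TPM in WT-PLN and at 16.7, 20.3 and 27.5 TPM in R14del-PLN. In RV the values were 11.8, 21.9 and 95.6 TPM in WT-PLN and 9.98, 20.9 and 16.9 TPM in R14del-PLN. The means were thus set mainly by the WT-PLN sample numbered 3 of each ventricle, and the ranges of the genotypes overlapped. The log2 fold change was -1.09 in LV (SE 0.71, limma adjusted p = 0.695) and -0.91 in RV (SE 0.71, adjusted p = 1.00), neither past the threshold. Leaving out the WT-PLN sample numbered 3 of the same ventricle brought it to -0.26 in LV and -0.074 in RV, and leaving out number 1 instead to -1.74 and -1.53, again not called.

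Thbs1 (thrombospondin 1; chr2:118111876-118127133, plus strand) codes for an anti-angiogenic glycoprotein that can activate latent TGF-beta. It had the widest spread of the 9 genes within WT-PLN hearts, at 1.33, 12.3 and 59.5 TPM in LV and 0.454, 9.94 and 38.4 TPM in RV. The R14del-PLN samples were uniformly low, at 0.689, 1.04 and 1.27 TPM in LV and 1.03, 0.775 and 0.706 TPM in RV. In LV every R14del-PLN sample was below every WT-PLN sample, by a narrow margin, whereas in RV the WT-PLN sample numbered 1 was the lowest of all. The log2 fold change was -2.63 in LV (SE 1.08, limma adjusted p = 0.444) and -2.22 in RV (SE 1.08, adjusted p = 0.830), so neither passed the test. Without both WT-PLN samples numbered 1, the samples lacking Y-linked transcripts, Thbs1 passed in both ventricles (-3.83 and -3.50, adjusted p = 0.0046 and 0.0110). Without both WT-PLN samples numbered 3 the values of Thbs1 were -1.48 and -1.12 (adjusted p = 0.895 and 0.976).

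**Figure D2:**
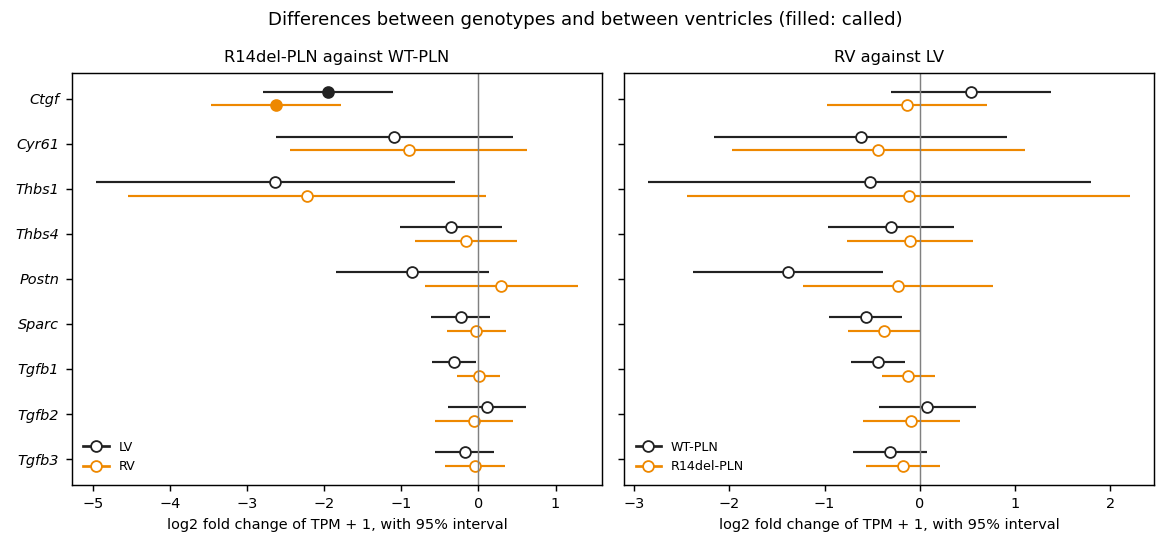
Log2 fold changes of TPM + 1 with 95% intervals from the limma fit for the 9 genes, between genotypes in each ventricle (left) and between ventricles in each genotype (right). Filled points passed the test; only Ctgf did, between genotypes, at -1.95 in LV and -2.62 in RV, and the interval of Thbs1 is the widest in each comparison.

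Cyr61 and Thbs1 followed a list of 13 immediate early genes (fast transcription factor and feedback genes such as Egr1 and Ier3) from sample to sample. The summed TPM of the list was 81.5, 175.8 and 425.9 in LV WT-PLN and 62.3, 63.3 and 81.9 in LV R14del-PLN. In RV it was 60.7, 135.3 and 316.9 in WT-PLN and 51.2, 62.8 and 51.7 in R14del-PLN. Among WT-PLN samples the list was therefore lowest in number 1 and highest in number 3 in both ventricles, as for Ctgf, Cyr61 and Thbs1. Across the 12 samples, the deviations from the group means correlated with those of the list at r = 0.983 for Thbs1, 0.966 for Cyr61 and 0.702 for Ctgf. These are descriptions, since samples of 1 number may share a heart and the spread comes mainly from the 6 WT-PLN samples. The deviations of Ctgf followed 6 macrophage markers (r = 0.870), 6 platelet markers (0.824) and the fibroblast markers (0.781) more closely.

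No gene of the immediate early list was called between genotypes with limma. In LV all 13 had a lower level in R14del-PLN, 9 of them at an unadjusted p of at most 0.05, and the median log2 fold change was -1.49. In RV 12 of 13 were lower, 5 at an unadjusted p of at most 0.05, with a median of -1.19. Over all 12526 tested genes 8980 were lower in LV and 6383 in RV, 983 and 426 of them at such a p. Egr1 was at 1.54, 26.7 and 102.7 TPM in LV WT-PLN and at 1.48, 1.78 and 3.05 TPM in LV R14del-PLN, which shows how far the WT-PLN samples differed among themselves. In the WT-PLN samples numbered 1 the immediate early sum lay within the R14del-PLN range, at 81.5 TPM in LV (62.3 to 81.9) and 60.7 TPM in RV (51.2 to 62.8). Ctgf of these samples was at 57.7 and 91.2 TPM, above every R14del-PLN sample of the same ventricle. Cyr61 lay within the R14del-PLN range in both ventricles (18.1 and 11.8 TPM), and Thbs1 was just above it in LV (1.33 TPM) and below it in RV (0.454 TPM). This contrast rests only on the samples lacking Y-linked transcripts, which may come from 1 heart. No other WT-PLN sample had an immediate early sum that low, so it cannot be given without them. The part of the immediate early genes in the genotype difference of the 3 genes was not tested.

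**Figure D3:**
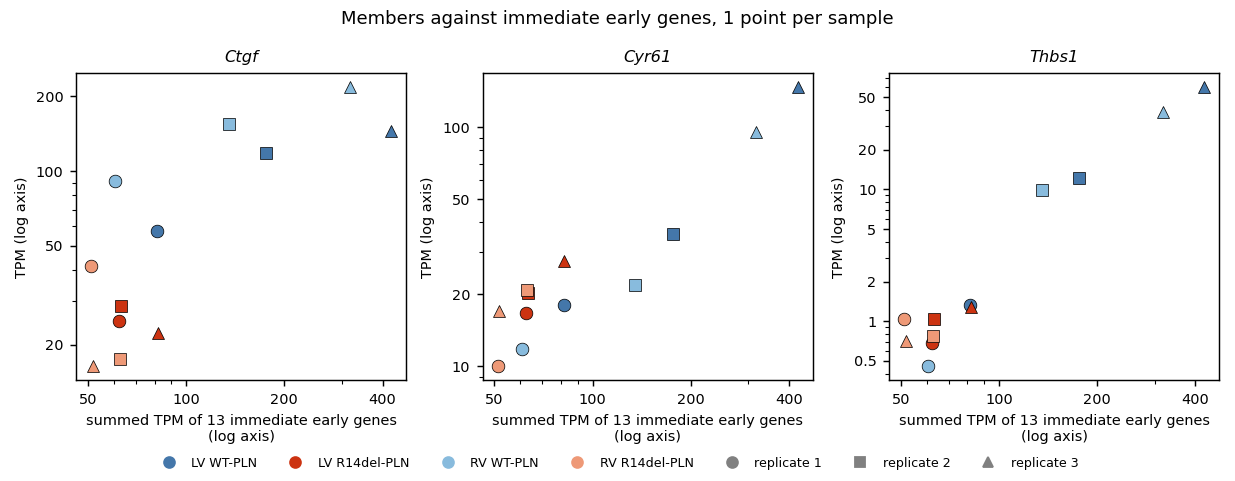
TPM of Ctgf, Cyr61 and Thbs1 against the summed TPM of 13 immediate early genes in each of the 12 samples, both on log axes; colours give ventricle and genotype, symbols the replicate number. Cyr61 and Thbs1 rise along the axis with the WT-PLN samples numbered 2 and 3, while Ctgf of the WT-PLN samples numbered 1 (57.7 and 91.2 TPM) lies above R14del-PLN samples with a like sum. The samples numbered 1 lack Y-linked transcripts and may come from 1 heart.

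The promoters of Cyr61 and Thbs4 are shown because they were the ones among the 6 members with a promoter in the RefSeq table (GRCm38.p6; Cyr61, Postn, Sparc, Tgfb1, Tgfb2 and Thbs4) whose 250 bases before the start held the TEAD motif CATTCC, searched on both strands. Capitals mark the motif, which runs from 103 to 98 bases before the start in Cyr61 (chr3:145649986-145650235, minus strand). In Thbs4 (chr13:92794819-92795068, minus strand) there were 2 overlapping copies, from 197 to 187 bases before the start.
Cyr61: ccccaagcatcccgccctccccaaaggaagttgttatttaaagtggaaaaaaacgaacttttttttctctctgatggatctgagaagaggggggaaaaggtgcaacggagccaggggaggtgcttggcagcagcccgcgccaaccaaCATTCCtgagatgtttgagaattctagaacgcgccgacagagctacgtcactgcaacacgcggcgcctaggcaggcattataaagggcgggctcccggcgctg
Thbs4: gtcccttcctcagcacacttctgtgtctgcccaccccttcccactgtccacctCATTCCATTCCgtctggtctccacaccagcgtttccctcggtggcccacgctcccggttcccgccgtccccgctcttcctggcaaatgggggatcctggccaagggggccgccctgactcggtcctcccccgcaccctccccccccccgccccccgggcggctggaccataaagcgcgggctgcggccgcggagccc
The motif was held by 12.6% of all 32851 promoter windows of this length. The serum response CArG box and the AP-1 motif TGANTCA were found in 1.47% and 6.75% of all windows and in none of the windows of these 6 genes. The SMAD box CAGAC, present in 42.2% of all windows, occurred in those of Tgfb2 (2 copies), Thbs4 (2), Sparc (1) and an upstream Postn start (1). The bases after that upstream start matched no annotated Postn transcript. The Postn window that does lead into a transcript (chr3:54360857-54361106, plus strand) held 0 SMAD boxes. These matches are descriptions of letters in the window. Cyr61, with 1 TEAD motif, varied 14.7-fold over the samples, and Thbs4, with 2, varied 5.37-fold. Of the members searched without the motif, Postn varied 11.3-fold, Tgfb2 2.20-fold, Sparc 1.99-fold and Tgfb1 1.81-fold. A link between motif and variation was not tested. No promoter entry was matched to Ctgf, Thbs1 or Tgfb3, so their promoters were not searched for any motif.

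Thbs4, Postn and Sparc, the other 3 matricellular genes, did not pass the test between genotypes. Thbs4 (thrombospondin 4; chr13:92751590-92794818, minus strand), a thrombospondin that also acts in the endoplasmic reticulum stress response of the heart, was at 1.71, 2.43 and 4.58 TPM in LV WT-PLN and 1.33, 1.85 and 2.73 TPM in LV R14del-PLN. RV values were 1.95, 1.37 and 2.98 TPM in WT-PLN and 2.90, 0.853 and 1.75 TPM in R14del-PLN. The groups overlapped in both ventricles, and the log2 fold changes were -0.35 in LV and -0.16 in RV (SE 0.31 each, limma adjusted p = 0.788 and 1.00).

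Postn (periostin; chr3:54361109-54391037, plus strand) is a matrix protein known as a marker of activated cardiac fibroblasts and of valve tissue. It was at 9.52, 8.54 and 38.7 TPM in LV WT-PLN and at 4.62, 8.14 and 12.1 TPM in LV R14del-PLN. In RV it was at 3.42, 5.14 and 7.27 TPM in WT-PLN and at 8.33, 6.38 and 5.07 TPM in R14del-PLN. The LV WT-PLN sample numbered 3 stood far above all others, and the genotypes overlapped in both ventricles. The log2 fold change was -0.86 in LV and 0.30 in RV (SE 0.46 each, limma adjusted p = 0.599 and 1.00), with an interaction of 1.16 (SE 0.65, adjusted p = 1.00). Without the LV WT-PLN sample numbered 3 the LV value was -0.19 and the interaction 0.49. The RV value ran from 0.069 (without RV WT-PLN 1) to 0.52 (without RV WT-PLN 3) when single samples were left out. The same LV WT-PLN sample was also the highest of all for 7 smooth muscle and pericyte markers (406.5 TPM, against 157 to 255 in the other 11 samples), for 8 valve, tendon and cartilage markers (42.8 against 9.91 to 26.9 TPM) and for 6 atrial markers (1319 against 45.9 to 881 TPM). Of those lists, Tnmd of the valve and tendon markers and Bmp10 and Sln of the atrial markers were listed at 0 in some samples. The part of other tissue in the Postn level was not tested.

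Sparc (osteonectin, a collagen-binding protein; chr11:55394500-55423183, minus strand) was the steadiest of the matricellular genes. It was at 91.9, 138.1 and 138.2 TPM in LV WT-PLN and 86.4, 100.7 and 125.5 TPM in LV R14del-PLN. In RV the values were 69.3, 88.2 and 86.9 TPM in WT-PLN and 80.3, 83.2 and 74.9 TPM in R14del-PLN. The genotypes overlapped in both ventricles, with log2 fold changes of -0.23 in LV and -0.029 in RV (SE 0.18 each, limma adjusted p = 0.759 and 1.00), the latter turning to 0.031 with quantile normalization and to 0.014 without mitochondrially encoded genes.

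The 3 TGF-beta ligands were expressed at low levels and none was called between genotypes. Tgfb1 (chr7:25687002-25705077, plus strand), the isoform most often linked to fibrosis, was at 6.30, 7.67 and 8.94 TPM in LV WT-PLN and at 6.00, 5.40 and 6.27 TPM in LV R14del-PLN. These ranges did not overlap but nearly touched, and the log2 fold change was -0.32 (SE 0.13, limma adjusted p = 0.445). In RV it was at 5.01, 5.40 and 5.53 TPM in WT-PLN and at 4.93, 5.70 and 5.36 TPM in R14del-PLN, a log2 fold change of 0.0033 with a 95% interval from -0.28 to 0.28.

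Tgfb2 (chr1:186622792-186705989, minus strand), the isoform with a main role in heart valve development, was at 1.96, 1.81 and 3.87 TPM in LV WT-PLN and at 1.76, 3.07 and 3.54 TPM in LV R14del-PLN. Its RV values were 1.88, 2.61 and 3.59 TPM in WT-PLN and 2.65, 2.56 and 2.27 TPM in R14del-PLN. The groups overlapped, and the log2 fold changes were 0.11 (95% interval -0.40 to 0.62) in LV and -0.056 (-0.57 to 0.45) in RV. Tgfb3 (chr12:86056745-86079041, minus strand), an isoform known for its role in palate closure, was at 3.98, 3.87 and 6.49 TPM in LV WT-PLN, 3.52, 3.65 and 4.94 TPM in LV R14del-PLN, 3.36, 3.32 and 4.04 TPM in RV WT-PLN and 4.06, 3.35 and 2.89 TPM in RV R14del-PLN. It overlapped between genotypes as well, with log2 fold changes of -0.18 (-0.57 to 0.21) in LV and -0.048 (-0.44 to 0.34) in RV. Tgfb3 lies opposite Ttll5 (mean 3.22 TPM), and since it was not stated whether reads were counted by strand, part of its low level cannot be assigned with certainty.

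Over the 9 genes, the LV log2 fold changes between genotypes had a median of -0.35, with 8 of 9 negative and 3 at an unadjusted p of at most 0.05 (Ctgf, Thbs1 and Tgfb1). Over all 12526 tested genes the median was -0.086 (0.014 after quantile normalization), with 8980 negative and 983 lower at such a p. In RV the median of the 9 genes was -0.056, with 7 of 9 negative and only Ctgf at an unadjusted p of at most 0.05, beside -0.0034 over all tested genes. Of all tested genes 6383 were negative in RV, 426 of them at such a p. Apart from Ctgf, no gene of the 9 was called in either ventricle.

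Between RV and LV no member was called in WT-PLN hearts with limma, where the rule called 0 genes in all (0%), although 1729 of 12526 genes were lower and 82 higher in RV at an unadjusted p of at most 0.05. The median log2 fold change of all genes was -0.17 there and 0.0051 after quantile normalization, so values are best read against that shift. Of the 9 genes, Postn (-1.38, SE 0.46, adjusted p = 0.269), Sparc (-0.57, SE 0.18, adjusted p = 0.253) and Tgfb1 (-0.44, SE 0.13, adjusted p = 0.236) had an unadjusted p of at most 0.05, and each was lower in all 3 RV samples than in any LV sample. Such a separation was seen for 25.2% of all tested genes, and the median of the 9 genes was -0.44. The value of Postn was -0.72 without the LV WT-PLN sample numbered 3 and ran down to -1.75 over the other single samples left out. Ctgf went the other way, being higher in RV than in LV in each of the 3 WT-PLN numbers (91.2 against 57.7, 154.7 against 118.9 and 218.0 against 145.5 TPM), but the ranges overlapped and the log2 fold change of 0.54 (SE 0.39) had an adjusted p of 0.493. This fit did not pair the samples by number. With each presumed heart as a fixed block, limma called 12 genes, no member among them. Adjusted p was then 0.0831 for Postn, 0.148 for Sparc, 0.187 for Tgfb1 and 0.275 for Ctgf.

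In R14del-PLN hearts 0 genes were called between RV and LV (0%), with 760 lower and 63 higher at an unadjusted p of at most 0.05, none of them a member. All 9 genes had negative log2 fold changes, from -0.44 (Cyr61) to -0.088 (Tgfb2), with a median of -0.13 beside -0.076 over all genes, and Ctgf, Tgfb1 and Tgfb2 turned positive without mitochondrially encoded genes. Of all 12526 tested genes 8814 had negative values as well. Sparc was again lower in all 3 RV samples than in any LV sample (-0.37, SE 0.18, limma adjusted p = 0.768), as were 8.72% of tested genes. The sum of 6 endothelial markers was lower in RV as well, just without overlap in R14del-PLN, at 109 to 127 against 148 to 188 TPM in WT-PLN and 118 to 145 against 145 to 184 TPM in R14del-PLN. Per unit of these markers, Sparc in RV was at 0.967 and 0.974 of its LV mean in WT-PLN and R14del-PLN hearts, and Tgfb1 in WT-PLN at 1.01, all with overlapping ranges. Sparc stayed without overlap per unit of fibroblast markers (0.694 and 0.763) and of cardiomyocyte markers (0.699 and 0.797), while per unit of smooth muscle and pericyte markers it was at 0.953 with overlap in WT-PLN and 0.849 without overlap in R14del-PLN. Tgfb1 in WT-PLN was at 0.727 per unit of fibroblast and 0.733 of cardiomyocyte markers, both without overlap, and at 1.01 per unit of smooth muscle and pericyte markers, with overlap. Postn in WT-PLN was at 0.413 of its LV mean per unit of endothelial markers, with overlap, and at 0.315, 0.296 and 0.481 per unit of fibroblast, cardiomyocyte and smooth muscle and pericyte markers, without overlap. Ctgf in WT-PLN was higher in RV without overlap per unit of endothelial markers (2.11) and of smooth muscle and pericyte markers (2.13). Per unit of fibroblast and cardiomyocyte markers Ctgf was at 1.53 and 1.51 of its LV mean, with overlap. The interaction of genotype and ventricle gave 0 calls (0%) with limma, 96 genes higher and 31 lower at an unadjusted p of at most 0.05, and no member among these.

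The deviations of the members from their group means correlated positively in every pair. Over the 12 samples, r was 0.949 for Postn and Tgfb2, 0.937 for Postn and Tgfb3, and 0.913 for Cyr61 and Thbs1. It was 0.831 for Tgfb2 and Tgfb3, 0.802 for Cyr61 and Tgfb2, and 0.798 for Thbs4 and Tgfb3. Cyr61 and Tgfb1 reached 0.787, as did Ctgf and Thbs1. The lowest values were 0.372 for Ctgf and Tgfb1 and 0.362 for Thbs4 and Tgfb1. The usual r between genes outside the list was not computed. The genes outside the list most like Thbs1 were Egr3 (r = 0.991), Egr1 (0.988) and Errfi1 (0.987), and those most like Cyr61 were Actb (0.981), Atat1 (0.973) and Trib1 (0.970). For Ctgf they were Cd209f (0.989), Vit (0.962) and Igf1 (0.955). Postn was most like Gja4 (0.977), Gm3650 (0.975) and Twsg1 (0.974), and Tgfb3 like Angptl7 (0.978), Gja4 (0.972) and Clptm1l (0.967). For Sparc the nearest gene was Ywhaq (0.981), for Thbs4 Mgat2 (0.978), for Tgfb2 Fam13c (0.968) and for Tgfb1 R3hdm2 (0.948). Points of 1 sample share a library, and these values carry no test.

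Among the genes around the ligands, the receptors, storage proteins and SMADs were not called in any comparison. For reading these lists and those below, the median log2 fold change between genotypes over all tested genes was -0.086 in LV and -0.0034 in RV, and 983 of 12526 genes in LV and 426 in RV were lower at an unadjusted p of at most 0.05. Without a limit on p, 8980 genes were lower in LV and 6383 in RV. After quantile normalization the LV median over all tested genes was 0.014. Of 5 receptors and co-receptors all were lower in LV (median log2 fold change -0.38, 3 at an unadjusted p of at most 0.05), as for the endothelial co-receptor Eng (-0.16) and the endothelial receptor Acvrl1 (-0.39, adjusted p = 0.455), and their median in RV was -0.072. Of 13 genes for latent TGF-beta storage and activation 12 were tested (median -0.22 in LV, -0.028 in RV), among them the latent TGF-beta binding protein Ltbp4 (-0.29 and -0.14) and the convertase Furin (-0.37 and -0.22). Itgb6, an integrin subunit that takes part in activating latent TGF-beta and named here after its values were seen, was higher in R14del-PLN in both ventricles at an unadjusted limma p of at most 0.05 but not called (0.62 in LV, adjusted p = 0.305, and 0.70 in RV, adjusted p = 0.338). Of 12 SMADs and inhibitors 5 were lower in LV at an unadjusted p of at most 0.05 (median -0.28, and -0.083 in RV). The common SMAD partner Smad4 had log2 fold changes of -0.26 and -0.0056, and the repressor Ski of -0.31 and -0.18.

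Among the 13 TGF-beta target genes reported here, 1 was called, in LV. In LV all 13 were lower in R14del-PLN, 6 of them at an unadjusted p of at most 0.05, with a median of -0.51. In RV 10 of 13 were lower, 2 at an unadjusted p of at most 0.05 and 0 called, with a median of -0.13. Eln (elastin, the core of elastic fibres) fell in LV, from 5.44, 5.32 and 9.34 TPM in WT-PLN to 2.10, 2.29 and 3.43 TPM in R14del-PLN (-1.07, SE 0.20, limma adjusted p = 0.0315, lost in 8 of 26 alternatives with adjusted p up to 0.162, among them leaving out LV WT-PLN 2 or 3, LV R14del-PLN 1 or 2, or RV R14del-PLN 3). Its highest value was in the LV WT-PLN sample numbered 3, which was also highest for the smooth muscle and pericyte markers, and without both WT-PLN samples numbered 3 it was -0.84 (adjusted p = 0.137). In RV it was at 3.10, 4.24 and 3.04 TPM against 2.48, 2.21 and 1.97 TPM (-0.46, adjusted p = 0.752), and the difference between the ventricles was 0.61 on the log2 scale (SE 0.28, adjusted p = 1.00). The best expressed targets were not called: the metalloproteinase inhibitor Timp3 had -0.77 in LV (adjusted p = 0.0725) and -0.44 in RV, and the proteoglycan biglycan (Bgn) -0.60 (adjusted p = 0.325) and -0.13. Timp3 was lower without overlap in LV, at 86.5, 105.8 and 121.0 TPM in WT-PLN against 53.7, 60.1 and 68.1 TPM in R14del-PLN. Such a separation in LV was seen for 8.47% of tested genes. In RV Timp3 overlapped, at 69.6, 94.0 and 93.2 TPM in WT-PLN against 60.7, 73.4 and 53.6 TPM in R14del-PLN.

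**Figure D4:**
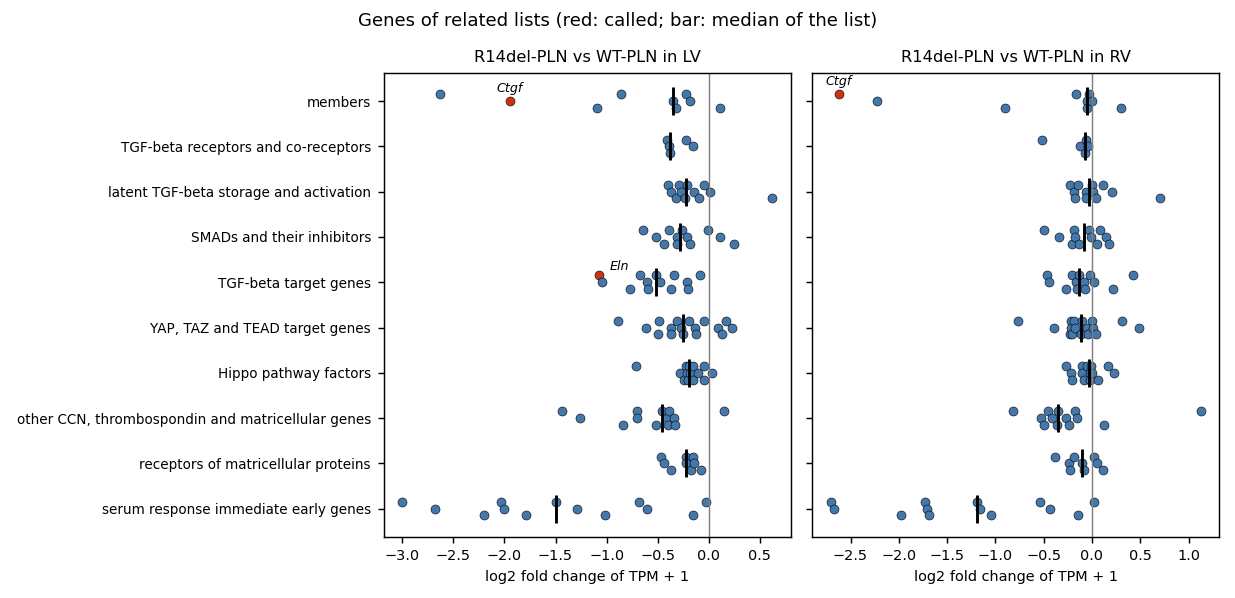
Log2 fold changes between genotypes in LV (left) and RV (right) for the 9 members and 9 related gene lists, 1 point per tested gene, with called genes in red and the median of each list as a bar. Of the genes plotted, Ctgf in both ventricles and Eln in LV were called; the immediate early list has the lowest medians, -1.49 and -1.19, without a call.

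The other targets of YAP, TAZ and TEAD did not follow Ctgf to a call. Of 19 listed, 17 were tested and 0 called, with 5 lower in LV at an unadjusted p of at most 0.05 and medians of -0.25 in LV and -0.11 in RV. The best expressed of them, the cardiac ankyrin repeat protein Ankrd1 (0.13 in LV and 0.49 in RV) and the receptor kinase Axl (-0.31 and -0.18), did not pass. The 14 Hippo pathway factors had medians of -0.19 and -0.035, with -0.046 and -0.0036 for the upstream regulator Nf2 and -0.20 and -0.10 for Yap1.

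Of 17 other CCN, thrombospondin and matricellular genes 13 were tested and 0 called. In LV 8 of the 13 were lower at an unadjusted p of at most 0.05 (median -0.46), and in RV 4 were lower and 1 higher (median -0.35). The best expressed were the Sparc relatives Sparcl1 (-0.33 in LV and -0.17 in RV) and Smoc2 (-0.34 and -0.23). Of 10 receptors of matricellular proteins 9 were tested, 0 of them at an unadjusted p of at most 0.05 in either ventricle (medians -0.22 and -0.11). The thrombospondin receptor Cd36 had -0.074 and 0.018, and the integrin subunit Itgb1 -0.22 and -0.19. Of the immediate early genes, the best expressed were Ier3 (-0.60 in LV, adjusted p = 0.450, and -0.54 in RV, adjusted p = 0.803) and Egr1 (-2.68 and -2.67, SE 1.24 each, adjusted p = 0.519 and 0.803).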

How the data were processed

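RNA sequencing of polyA stranded libraries covered 12 samples, 3 per ventricle and genotype, grouped by their titles. The deposited values are TPM, made by the authors and summing to 1000000 per sample, so depth is unknown and no counting error or floor can be given. The study names CLC Genomics Workbench and GRCm38 for its own mapping and tests. Which program and annotation gave the deposited TPM, and whether strand was used, are not given in the sources used here. The labels do not say that the samples of a group are separate animals, so p-values measure only the spread between these samples.

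Log2(TPM + 1) of 12526 genes averaging 0.5 TPM or more (of 33641 listed, 22948 above 0 in some sample) was fitted with limma 3.58.1 in R 4.3.3 (4 group means, 12 samples, empirical Bayes with trend, 8 residual and 5.15 prior degrees of freedom). The fit was checked on simulated data with independent samples, a check that does not cover samples sharing a heart. Calls needed an adjusted p up to 0.05 together with a change of 1.5-fold or more, the interaction by adjusted p alone. Log2 fold changes understate the change of genes near the added 1.

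Same-numbered WT-PLN samples of LV and RV deviated together (r of 0.657, 0.321 and 0.457 over tested genes), so the numbers were taken as pairs there, a pairing seen in the data and not stated in the labels. The main fit had no block, and blocks were tried with statmod 1.5.0 as alternatives, beside other pseudocounts, filters, scalings, left-out samples and subsets.

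The members and gene lists were chosen with earlier results of these data known. Named genes were all members, each called gene and the 2 best expressed genes of each related list. A gene of the TGF-beta target list is not reported here, and the counts of that list leave it out. Egr1 and Timp3, both under this rule, were given by sample after their values were seen, and the alternative without both WT-PLN samples numbered 3 was added then. Gene positions come from GENCODE M21 (GRCm38), and no other transcript reached 95% identity over 80% of the shorter one for any member (0 copies). Ctgf, Thbs1 and Tgfb2 also lie opposite annotated genes that have no values here. Other steps used pandas 2.3.3 and numpy 2.4.6 in Python 3.11.15, and figures matplotlib 3.10.9.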

Additional observations from a re-analysis of the deposited data

How the results depend on the processing

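Of 1261 recomputed values of single genes, 1184 kept their direction and their side of the threshold, 27 were no longer called, 2 became called and 48 changed sign, none of the last called. Without a filter, 0 of the 9 genes were called in either ventricle. In LV 0 were called with quantile normalization, upper quartile scaling or mitochondrially encoded genes removed (adjusted p of Ctgf 0.0625, 0.0521 and 0.0595), and in RV 0 with only the 6 samples of the comparison (0.0681). Leaving out 1 sample gave 0 to 1 called genes in each ventricle: Ctgf was lost in LV in 7 of 12 such settings (adjusted p up to 0.215), namely without LV WT-PLN 2 or 3, RV WT-PLN 2, any LV R14del-PLN sample or RV R14del-PLN 3, and in RV in 3 of 12 (up to 0.0668), without RV WT-PLN 2 or 3 or RV R14del-PLN 3. Without both WT-PLN samples numbered 1, 2 genes (Ctgf and Thbs1) were called in each ventricle, and without both numbered 3, 0. The cause of these changes was not tested. No setting called a member between ventricles or in the interaction. Over all genes, calls in LV (12 higher and 53 lower) became 39 and 65 with quantile normalization, 35 and 64 with upper quartile scaling and 19 and 76 without mitochondrially encoded genes, and in RV (9 and 25) 29 and 56, 32 and 56, and 31 and 42. With few samples and no depth, moderate differences of the variable genes Cyr61, Thbs1 and Postn could not be resolved.

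With the replicate number as a block, 0 members were called in LV (Ctgf adjusted p = 0.0533) and Ctgf alone in RV (0.0166), with 119 and 62 genes called in all. With the samples of 1 genotype and number (a presumed heart) as a random block the counts were 68 and 35, Ctgf included in both. For RV against LV in WT-PLN, where the numbers pair the samples, the block by heart called 12 genes against 0, no member among them. The block changed no other call of a member. Same-numbered R14del-PLN samples of LV and RV correlated at 0.389, 0.230 and 0.0542, against -0.396 to 0.160 for unlike numbers. Same-numbered samples of the genotypes correlated at -0.0209 to 0.219. No pairing was read from these values, but the blocks by heart also paired the R14del-PLN samples by number.

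All sign changes concern log2 fold changes that were not called. Without both WT-PLN samples numbered 3, the genotype difference became 0.023 for Tgfb3 in LV, and in RV 0.035 for Thbs4, 0.021 for Sparc, 0.11 for Tgfb2 and 0.024 for Tgfb3. Without both numbered 1 it became -0.031 for Tgfb1 in RV. Sparc in RV became 0.031 with quantile normalization and 0.014 without mitochondrially encoded genes, which also turned RV against LV in R14del-PLN to 0.020 for Ctgf, 0.019 for Tgfb1 and 0.044 for Tgfb2. Leaving out 1 sample at a time, the genotype difference in LV ran from -0.035 to 0.36 for Tgfb2 and from -0.30 to 0.023 for Tgfb3. In RV it ran from -0.42 to 0.11 for Thbs4, -0.14 to 0.032 for Sparc, -0.038 to 0.049 for Tgfb1, -0.22 to 0.11 for Tgfb2 and -0.15 to 0.042 for Tgfb3. RV against LV ran in WT-PLN from -1.45 to 0.21 for Cyr61, -1.73 to 0.75 for Thbs1 and -0.091 to 0.33 for Tgfb2. In R14del-PLN it ran from -0.55 to 0.095 for Ctgf, -0.37 to 0.17 for Thbs4, -0.55 to 0.062 for Postn and -0.30 to 0.058 for Tgfb2. The interaction ran from -0.64 to 1.02 for Cyr61, -0.87 to 1.61 for Thbs1, -0.098 to 0.47 for Thbs4, -0.42 to 0.0030 for Tgfb2 and -0.070 to 0.26 for Tgfb3.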
